A study of Mus musculus with 11 samples.

Results

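Integrins, syndecans, dystroglycan, the hyaluronan receptor Cd44 and the discoidin domain receptors are the proteins by which cells hold on to the extracellular matrix, and they are described here in bulk RNA-seq of the mouse ventricle. The genes were taken by symbol (every Itga and Itgb gene followed by a number, 6 alpha chains named by a letter, Itgbl1, Sdc1 to Sdc4, Dag1, Cd44, Ddr1 and Ddr2), which gave 37 of the 46517 gene identifiers in the count table. One of the 37, Itgb3bp, shares only the start of its symbol: it encodes a centromere protein that binds the tail of an integrin chain, and it is kept apart below. The remaining genes were sorted by what they bind into 6 muscle and laminin receptors, 8 receptors of fibronectin, vitronectin and tenascin, 6 collagen receptors, 6 syndecans and related molecules, and 10 integrins of leukocytes and platelets.

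An integrin is a pair of 1 alpha and 1 beta chain. Its outer domains bind a matrix protein, and the tail of the beta chain recruits talin, kindlin and other adaptors that couple it to actin. In heart muscle the pair of Itga7 and Itgb1 and the dystroglycan encoded by Dag1 both anchor the cell to laminin, dystroglycan through the dystrophin complex. Syndecans are membrane proteins that carry heparan sulfate, Ddr1 and Ddr2 are tyrosine kinases switched on by collagen, and the leukocyte integrins share the beta chain Itgb2.

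The 11 libraries came from the ventricular myocardium of mice operated on at 10 to 12 weeks of age. Mice labelled KO carried floxed alleles of Lmnb2, the gene of lamin B2, and a Cre recombinase driven by the cardiomyocyte promoter Tnnt2; their controls, labelled WT, carried the Cre without the floxed alleles, so that cells other than cardiomyocytes keep Lmnb2 in both. Either genotype had sham surgery or TAC (transverse aortic constriction), a suture around the aortic arch that makes the ventricle pump against more pressure. Sham hearts gave 2 WT and 3 KO libraries and TAC hearts 3 of each genotype, and 1 of the WT sham libraries is labelled WT where the other is labelled Lmnb2 WT. How long after the operation the hearts were taken is not stated in the labels. The labels do not say outright that each library is a separate mouse, so p-values measure only the spread between these samples. Title numbers of sham and TAC libraries fall in separate ranges, so an order of handling that follows them cannot be told apart from surgery. Titles end in F for KO sham 2, WT TAC 1 and KO TAC 3 and in M for the other 8 libraries, so both WT sham titles end in M.

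Library totals ran from 14770383 to 17333227 counts. Mitochondrially encoded genes took 32.8% to 49.4% of the counts after sham and 13.2% to 35.9% after TAC, and cytoplasmic ribosomal protein genes 0.652% to 1.72% after sham and 0.871% to 6.73% after TAC. The part of these shares in the changes with load was not tested. Within the TAC groups, WT TAC 3 and KO TAC 1 had the largest mitochondrial shares (30.5% and 35.9%) and the smallest ribosomal protein shares (1.32% and 0.871%), and calls of receptor genes that change without this pair are given below. Lmnb2 was at 4.44 and 3.86 CPM (counts scaled to the TMM-adjusted library size) in WT sham and at 0.649, 1.81 and 2.43 CPM in KO sham. With TAC the values were 2.86, 2.16 and 6.70 CPM for WT and 9.72, 3.24 and 4.46 CPM for KO. Its RNA was thus lower in the sham libraries labelled KO and not lower in the TAC libraries labelled KO, neither difference passed (edgeR adjusted p = 1 and 0.792), and WT and KO below mean the labels. The cardiomyocyte markers summed to 28920 to 61446 CPM in every library, as the tissue label says.

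The receptor genes differed widely in level. On a scale per length (RPKM, CPM per kilobase of annotated exon), Itgb1 stood first with a mean of 144 RPKM over the 11 libraries, and its lowest library (86.6 RPKM) was above the highest library of every other gene. Dag1 followed at 37.1 RPKM, Itgb5 at 19.6 RPKM, Sdc2 at 16.1 RPKM, Itga7 at 12.5 RPKM and Itga5 at 8.56 RPKM. From Dag1 down, the ranges of neighbours in this order overlapped, so only the place of Itgb1 is set apart by the spread between libraries. The lowest were Itga2 at 0.0392 RPKM and Itgb2l, a gene of the Itgb2 family, at 0.0134 RPKM with 0 counts in 9 of 11 libraries. These last 2 did not pass the filter on low counts, which left 35 of the 37 genes for the tests.

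**Figure D1:**
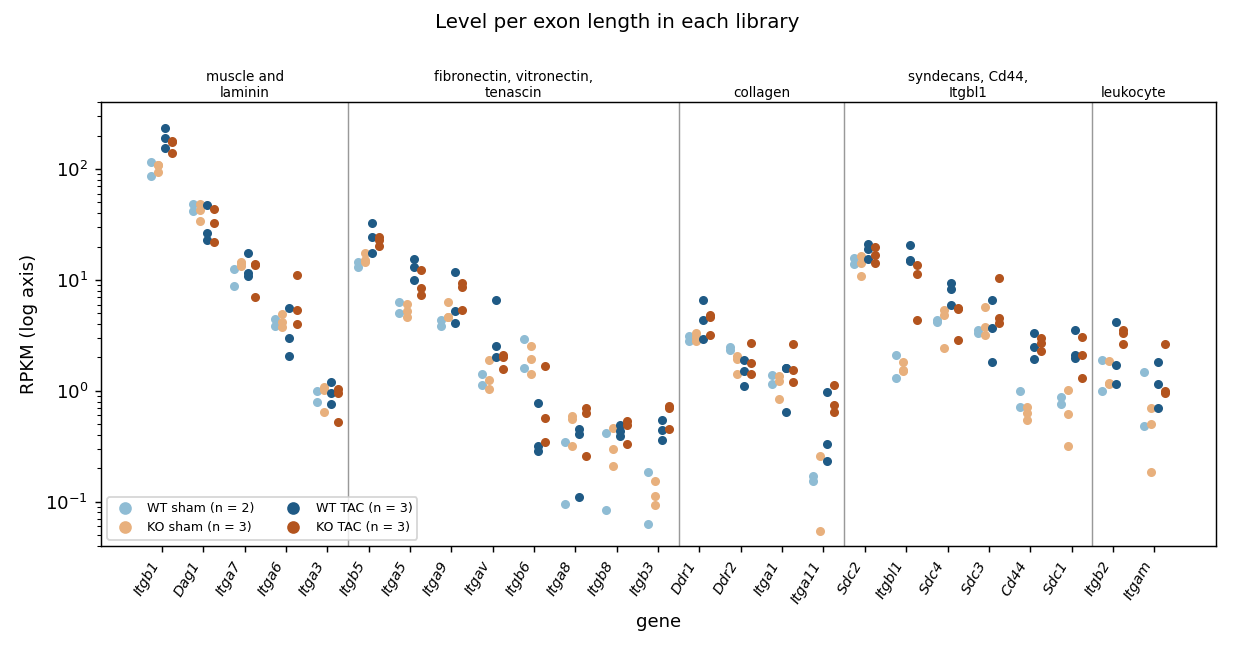
RPKM (log axis) of 25 of the receptor genes in each library, grouped by what they bind, with the 4 groups of samples in separate columns. Itgb1 lies between 86.6 and 236 RPKM in every library, above all other genes, and Itgbl1, Cd44 and Sdc1 have all 6 TAC libraries above all 5 sham libraries. How many of all genes separate likewise was not counted.

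Among the 9 beta chains Itgb1 made up 83.0% to 92.1% of the summed RPKM in each library, and Itgb5 6.79% to 14.3%. The 18 alpha chains were spread more evenly. Itga7 was the leading alpha chain in all 5 sham libraries with 30.8% to 44.0% of the alpha sum. After TAC it held 21.2% to 37.7%, and Itga5 exceeded it only in WT TAC 3 and KO TAC 3. Itga5, the alpha chain of the classical fibronectin receptor, held 15.3% to 20.3% of the alpha sum after sham and 19.8% to 33.6% after TAC.

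Pressure load was the comparison in which receptor genes changed. In WT, 4 of the 35 tested genes rose after TAC (Cd44, Itga2b, Itga5 and Itgbl1) and 1 fell (Itgb6), where 6.92% of all 14619 tested genes passed, 3.88% higher and 3.04% lower (edgeR quasi-likelihood test, Benjamini-Hochberg adjusted p under 0.05). In KO, 3 rose (Cd44, Itgb3 and Itgbl1) and 0 fell, where 4.7% of all genes passed, 3.32% higher and 1.37% lower. With both genotypes in 1 fit, adjusted for genotype, 10 of 35 rose (Cd44, Itga5, Itga11, Itgae, Itgax, Itgb1, Itgb3, Itgb5, Itgbl1 and Sdc1) and Itgb6 fell, where 19.5% of all genes passed, 10.6% higher and 8.96% lower. The median log2 change of the 35 was 0.71 in WT, 0.58 in KO and 0.66 in the joint fit, beside 0.05, 0.03 and 0.05 over all genes. By role, the medians in WT and KO were 0.08 and 0.16 for the muscle and laminin receptors, 0.65 and 0.66 for the collagen receptors and 0.83 and 0.49 for the receptors of fibronectin, vitronectin and tenascin. They were 1.23 and 1.15 for the syndecans and related molecules and 0.38 and 1.19 for the leukocyte and platelet integrins, and these differences between the genotypes were not tested. The WT and KO comparisons set no common sample against another, but both come from 1 fit of all 11 libraries with a shared estimate of the spread. The p-values of either genotype thus also depend on samples of the other, and the joint fit uses the samples of both. Without TMM factors, scaling by library totals moved the median of all genes to 0.37, 0.49 and 0.45 and the split of calls from 567 higher and 444 lower to 1044 and 133 in WT, from 486 and 201 to 1325 and 60 in KO, and from 1545 and 1310 to 3577 and 385 in the joint fit. Changes below are relative to the TMM scaling. Leaving out WT TAC 3 and KO TAC 1 gave 2297 higher and 2077 lower of 14363 genes in WT and 1081 and 1036 in KO. In the joint fit it gave 2688 and 2748. More genes of any kind thus passed without this pair, which bears on the receptor genes said below to pass without it. How many of all genes have surgery groups that do not overlap was not counted, so such a gap below describes single genes only.

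**Figure D2:**
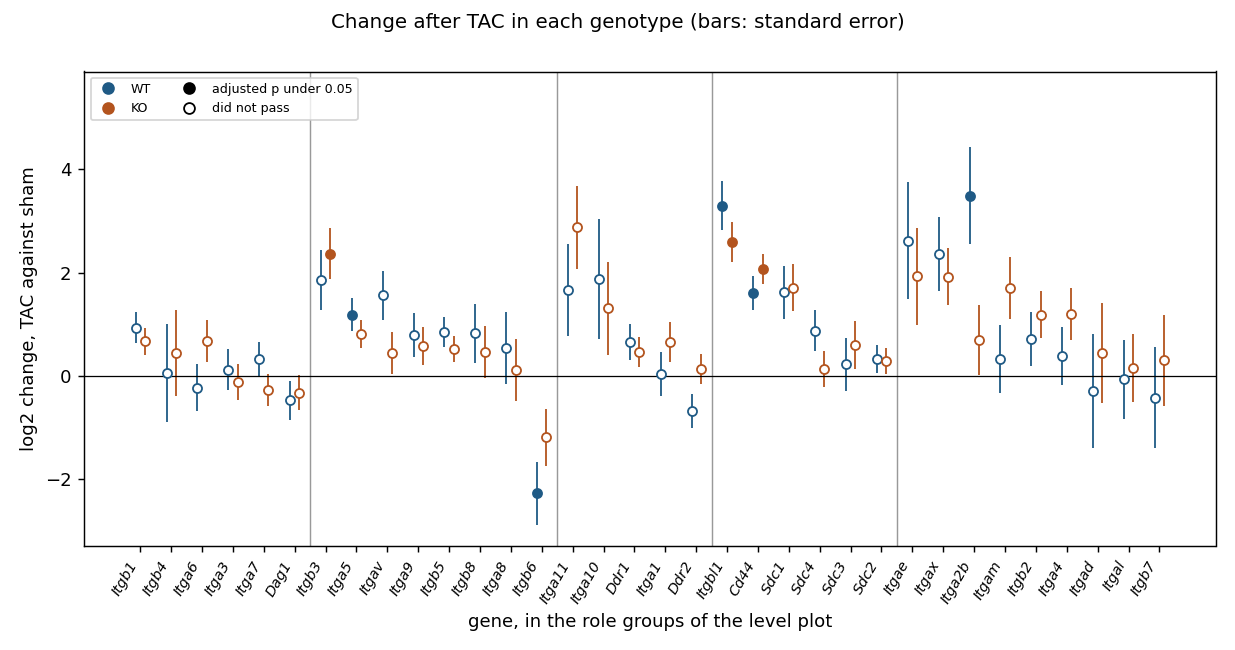
Log2 change after TAC in WT and in KO for 34 receptor genes, with the standard error as bars; filled symbols passed the adjusted threshold of 0.05. Filled symbols sit at Itgbl1 and Cd44 in both genotypes, at Itga5, Itga2b and Itgb6 in WT only, and at Itgb3 in KO only, and no difference between the genotypes passed.

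Upstream DNA is shown for 6 of the genes on which these results turn, to set apart promoters of the GC-rich type from others: Itgb1, Itga5, Itgb6, Cd44, Itgbl1 and Sdc1. The sequences come from RefSeq promoter windows on GRCm38.p6, of which 28 of the 37 genes have at least 1, and each is the stretch of the 250 bases before a RefSeq start that lies outside annotated exons, read 5′ to 3′ on the gene's strand. Capitals mark matches on either strand to 1 of 8 motifs. Those searched were TGANTCA as the site of AP-1, TATAAA as the element of TBP, GGGCGG as the element of Sp1 (called the GC box below), GGAATG as the site of TEAD factors, GAGGAAG as the site of PU.1, GTCTAGAC as the box of SMAD factors, GGAAAA as the core of NFAT sites, and the CArG box of SRF.
Itgb1, chr8:128685404-128685653, plus strand: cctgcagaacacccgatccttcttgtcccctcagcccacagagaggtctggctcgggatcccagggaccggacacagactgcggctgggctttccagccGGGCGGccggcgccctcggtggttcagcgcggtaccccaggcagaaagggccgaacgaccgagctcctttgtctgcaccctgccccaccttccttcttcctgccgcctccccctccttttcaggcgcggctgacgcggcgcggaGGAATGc
Itga5, chr15:103366792-103367041, minus strand: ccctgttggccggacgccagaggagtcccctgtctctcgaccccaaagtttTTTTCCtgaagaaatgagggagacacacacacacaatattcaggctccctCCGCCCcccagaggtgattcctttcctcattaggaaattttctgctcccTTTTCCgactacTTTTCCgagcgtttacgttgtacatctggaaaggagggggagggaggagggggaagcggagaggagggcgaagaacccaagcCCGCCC
Itgb6, chr2:60722644-60722853, minus strand: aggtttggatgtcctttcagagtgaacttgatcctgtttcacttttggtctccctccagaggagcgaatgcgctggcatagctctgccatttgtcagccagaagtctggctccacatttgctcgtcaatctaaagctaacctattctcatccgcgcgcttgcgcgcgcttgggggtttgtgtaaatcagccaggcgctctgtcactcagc
Cd44, chr2:102901666-102901915, minus strand: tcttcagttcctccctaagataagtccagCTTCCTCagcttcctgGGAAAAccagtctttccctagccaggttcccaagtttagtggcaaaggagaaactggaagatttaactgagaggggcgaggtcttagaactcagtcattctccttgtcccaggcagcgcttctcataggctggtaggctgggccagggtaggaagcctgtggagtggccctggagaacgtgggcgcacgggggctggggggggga
Itgbl1, chr14:123659890-123659970, plus strand: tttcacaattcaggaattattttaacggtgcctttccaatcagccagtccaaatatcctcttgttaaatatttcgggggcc
Sdc1, chr12:8771182-8771322, plus strand: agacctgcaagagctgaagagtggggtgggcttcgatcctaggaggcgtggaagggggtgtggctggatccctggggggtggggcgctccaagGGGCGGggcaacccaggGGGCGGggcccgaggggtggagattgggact
Itgb1 holds a GC box and a TEAD match, Itga5 2 GC boxes and 3 NFAT cores, and Sdc1 2 GC boxes. Cd44 holds a PU.1 match and an NFAT core and no GC box, and the stretches shown for Itgb6 and Itgbl1 hold none of the 8 motifs. No 2 matches overlapped. The GC box before Itgbl1, and a further GC box and a PU.1 match before Sdc1, lie outside the stretches shown. A second RefSeq window of Itgb6, chr2:60673694-60673943, is not shown. It holds a CArG box and a PU.1 match, both within annotated exon bases. GC made up 68.0% of the window of Itgb1, 66.0% of that of Sdc1 and 42.4% of that of Itgbl1, beside a median of 52.4% over all windows. Over all 32851 RefSeq windows of 250 bases, 32.74% held the GC box, 20.43% the NFAT core, 12.64% the TEAD site, 12.37% the TATAAA element, 10.61% the PU.1 site, 6.75% the AP-1 site, 1.47% the CArG box and 0.17% the SMAD box. A match describes letters only, and the data hold no measurement of binding.

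Of the 6 muscle and laminin receptors tested, Itgb1 rose in the joint fit and the others did not pass, and the median log2 change of the 6 was 0.12. Itgb1 (chr8:128685654-128733200, GRCm38, plus strand), the beta chain that most alpha chains pair with, stood at 354 and 474 CPM in the WT sham libraries and at 440.3, 440.4 and 387 CPM in the KO sham libraries. The WT TAC libraries held 961, 629.8 and 779 CPM and the KO TAC libraries 570.1, 734 and 710.1 CPM. All 6 TAC libraries lay above all 5 sham libraries, and the joint log2 change was 0.78 ± 0.19 (SE, edgeR adjusted p = 0.0124). Within each genotype the same gene did not pass, with 0.93 ± 0.30 in WT (edgeR adjusted p = 0.0789) and 0.67 ± 0.26 in KO (edgeR adjusted p = 0.184). The WT change did pass without WT TAC 3 and KO TAC 1 (0.94, edgeR adjusted p = 0.0289), with DESeq2 (0.97, adjusted p = 0.00752) and with library totals (1.27, edgeR adjusted p = 0.0332), and the KO change with library totals (1.13, edgeR adjusted p = 0.0247). The joint call was lost without WT sham 1 (0.69, edgeR adjusted p = 0.0595) and among the 8 libraries whose titles end in M (0.73, edgeR adjusted p = 0.0595). In bulk RNA, more RNA per cell and more cells of a type that express the gene cannot be told apart, here or below.

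Itga7, the partner of Itgb1 in muscle, stood at 102 and 70.9 CPM with WT sham and 108, 114 and 118 CPM with KO sham, and at 87.4, 141 and 93.5 CPM with WT TAC and 112, 110.5 and 56.5 CPM with KO TAC. The groups overlapped throughout, and the joint log2 change was -0.02 ± 0.24 (SE, edgeR adjusted p = 0.959), or 0.37 with library totals. Dag1 (chr9:108204634-108263958, minus strand), dystroglycan, stood at 264 and 307 CPM in the WT sham libraries and at 214, 304 and 269 CPM in the KO sham libraries. With TAC, WT gave 146, 167 and 300.3 CPM and KO 279.9, 206 and 139 CPM. The high TAC values belong to WT TAC 3 and KO TAC 1, the pair of libraries that stand apart in composition, and the other 4 TAC libraries lay below all 5 sham libraries. The joint change of Dag1 was -0.40 ± 0.24 (SE, edgeR adjusted p = 0.269). Without WT TAC 3 and KO TAC 1 it was -0.74 and passed (edgeR adjusted p = 0.00976), as did the WT change (-0.87, edgeR adjusted p = 0.0348). Over all 14363 genes of that setting, 2748 were lower in the joint fit and 2077 in WT. With all libraries these were 1310 and 444 of 14619. Scaling by library totals brought the joint change of Dag1 to 0.02. Itga3 and Itga6, further alpha chains of laminin receptors, differed by -0.02 and 0.26 on the log2 scale in the joint fit and did not pass. The first turned positive with library totals (0.38). That of Itga6 ran from -0.27 without WT TAC 3 and KO TAC 1 to 0.76 with the ribosomal protein share as covariate, where it passed (edgeR adjusted p = 0.011). Itgb4, the partner of Itga6 in hemidesmosomes, had at most 33 counts in a library and differed by 0.27.

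Set against each other within a library, Itga7 of the laminin receptors and Itga5 of the fibronectin receptors shifted. The ratios here were chosen after the values were seen and are therefore given without a test. The ratio of Itga7 to Itga5 (RPKM) was 1.99 and 1.75 in WT sham and 2.88, 2.30 and 2.76 in KO sham. It was 1.08, 1.12 and 0.879 in WT TAC and 1.12, 1.62 and 0.962 in KO TAC, so the 2 surgery groups did not overlap. The ratio of Itgb1 to Dag1 ran from 2.09 to 3.21 after sham and from 3.17 to 10.2 after TAC. These 2 ranges overlap through KO TAC 1 and KO sham 1. The ratio of Itgb1 to Itgb5, a beta chain of the fibronectin and vitronectin group, showed no such shift. It ran from 6.01 to 8.91 after sham and from 5.88 to 13.6 after TAC. Summed cardiomyocyte markers also differed between the surgery groups: they were 43193 to 61446 CPM after sham and 28920 to 43471 CPM after TAC (3 of 8 markers fell in the joint fit, 0 rose, and none was at 0). The 2 ranges overlap through WT TAC 1 and WT sham 2, and among the TAC libraries the highest sum and the highest ratio of Itgb1 to Dag1 are both those of WT TAC 1. Their part in the ratios was not tested.

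**Figure D3:**
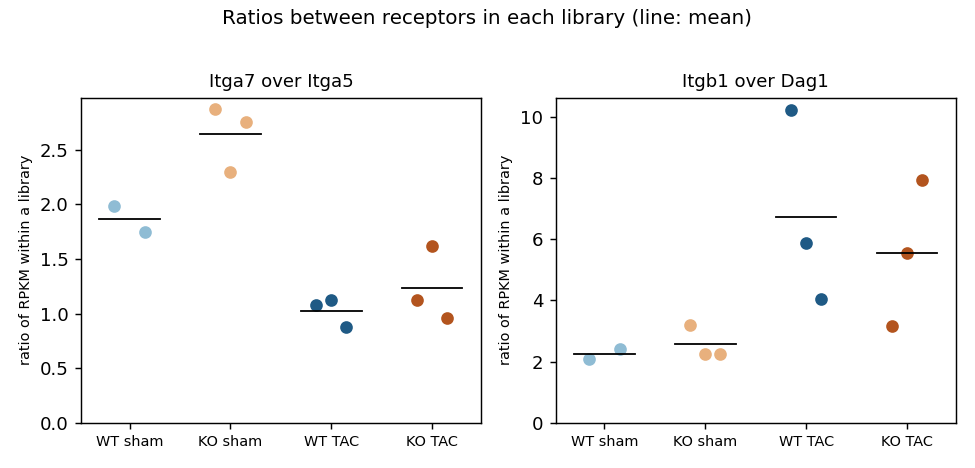
Ratio of 2 receptor genes within each library on the RPKM scale, by group, with the group mean as a line. The ratio of Itga7 to Itga5 is 1.75 or more in the sham libraries and 1.62 or less in the TAC libraries, and the ratio of Itgb1 to Dag1 is highest in WT TAC 1 at 10.2.

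Of the 8 receptors of fibronectin, vitronectin and tenascin tested, 3 rose (Itga5, Itgb3 and Itgb5), 1 fell (Itgb6) and 4 did not pass in the joint fit, with a median log2 change of 0.67. Itga5 (chr15:103344286-103366763, minus strand) stood at 31.2 and 24.7 CPM in the WT sham libraries and at 23.0, 30.2 and 26.1 CPM in the KO sham libraries. TAC libraries of WT read 49.3, 76.7 and 64.8 CPM, those of KO 61.1, 41.6 and 35.8 CPM. All TAC libraries lay above all sham libraries, with a joint log2 change of 0.97 ± 0.20 (SE, edgeR adjusted p = 0.00531), and the call was lost in 0 of 22 other settings. The change in WT alone, 1.19 ± 0.31 (edgeR adjusted p = 0.0418), was lost in 10 of 23. In 7 of these 1 library was left out (WT sham 1 or 2, KO sham 1, 2 or 3, WT TAC 2 or KO TAC 2), which gave 1.02 to 1.36 with edgeR adjusted p from 0.0592 to 0.307. The change in KO, 0.80 ± 0.27, did not pass (edgeR adjusted p = 0.118). Its upstream stretch above holds 2 GC boxes, the last of them ending at the base before the RefSeq start.

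Itgb3 (chr11:104608000-104670476, plus strand) pairs with Itgav on many cells and with Itga2b on platelets. Sham libraries held 0.375 and 1.10 CPM (WT) and 0.556, 0.664 and 0.903 CPM (KO), and TAC libraries 2.62, 2.10 and 3.22 CPM (WT) and 4.10, 2.66 and 4.35 CPM (KO). The 2 surgery groups did not overlap, and Itgb3 rose by a log2 change of 2.14 ± 0.37 in the joint fit (SE, edgeR adjusted p = 0.00163), a call lost in 0 of 22 other settings. In KO alone it rose by 2.37 ± 0.50 (edgeR adjusted p = 0.0194), a call lost without KO sham 1, 2 or 3 or without KO TAC 3 (2.23 to 2.58, edgeR adjusted p from 0.0525 to 0.0894). In WT the change was 1.86 ± 0.57 (edgeR adjusted p = 0.0697). At its highest it reached 0.416% of the beta chains, so the rise concerned a minor chain of this tissue.

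Itgb5, the second beta chain by level and another partner of Itgav, stood at 51.2 and 46.3 CPM in the WT sham libraries and at 51.9, 62.3 and 53.3 CPM in the KO sham libraries. The values with TAC were 61.7, 85.8 and 115 CPM for WT and 72.5, 86.6 and 81.0 CPM for KO. Only WT TAC 1 reached into the sham range, below KO sham 2, and the joint log2 change was 0.66 ± 0.19 (SE, edgeR adjusted p = 0.0252). That call was lost in 6 of 22 other settings, 5 of which left out a single library (WT sham 1, WT sham 2, KO sham 1, KO sham 3 or KO TAC 2, with changes of 0.60 to 0.66 and edgeR adjusted p from 0.0518 to 0.0927). Itgav itself did not pass, at 0.92 ± 0.34 in the joint fit (edgeR adjusted p = 0.0785), though it passed without KO sham 2 (1.14, edgeR adjusted p = 0.0418), without WT TAC 3 and KO TAC 1 (1.01, edgeR adjusted p = 0.0441) and with DESeq2 (0.94, adjusted p = 0.0357). Its range after TAC, 16.8 to 71.5 CPM, rested at the upper end on WT TAC 1, without which the WT change went from 1.56 to 0.85, and without WT TAC 3 it was 1.77 and passed (edgeR adjusted p = 0.0264), also with KO TAC 1 left out (1.77, edgeR adjusted p = 0.0106).

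Itgb6 (chr2:60598292-60722643, minus strand), a beta chain known from epithelium that pairs with Itgav and frees latent TGF-beta, was the receptor gene that fell. It stood at 11.4 and 20.7 CPM in the WT sham libraries and at 13.9, 10.1 and 18.2 CPM in the KO sham libraries. In TAC hearts the levels were 2.26, 2.05 and 5.50 CPM (WT) and 11.8, 4.04 and 2.46 CPM (KO). KO TAC 1 alone reached into the sham range. The log2 change was -1.68 ± 0.42 in the joint fit (SE, edgeR adjusted p = 0.0144), -2.28 ± 0.61 in WT (edgeR adjusted p = 0.0441) and -1.20 ± 0.55 in KO (edgeR adjusted p = 0.26). Without KO TAC 1 the change in KO was -2.14 and passed (edgeR adjusted p = 0.0286), also with WT TAC 3 left out (edgeR adjusted p = 0.00263). The joint call was lost without WT sham 2 (-1.40, edgeR adjusted p = 0.0516) and among the 8 libraries whose title ends in M (-1.51, edgeR adjusted p = 0.0684), and the WT call was lost in 13 of 23 settings. In 8 of the latter 1 library was left out (WT sham 1 or 2, KO sham 1, 2 or 3, WT TAC 1 or 2, or KO TAC 2), with changes of -2.65 to -1.80 and edgeR adjusted p from 0.0564 to 0.292. Of the epithelial markers, Krt5 was at 0 counts in every library and Epcam at most at 0.371 CPM, below Itgb6 in each of the 11. The summed 5 epithelial markers were 0.125 to 0.834 CPM after sham and 0.858 to 8.75 CPM after TAC, mostly as Krt18, 1 of the 2 markers tested and the one that rose. The part of epithelial cells in the fall of Itgb6 was not tested.

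The remaining 3 receptors of this kind did not pass. Itga9, which binds tenascin-C and osteopontin, ran from 29.6 to 48.6 CPM after sham and from 31.7 to 90.4 CPM after TAC, with a joint log2 change of 0.67 ± 0.27 (SE, edgeR adjusted p = 0.0985). Itga8, a receptor of nephronectin, differed by 0.29 ± 0.44, and Itgb8, another activator of latent TGF-beta, by 0.62 ± 0.37. Their ranges after sham and TAC overlapped.

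Of the collagen receptors 1 of 5 tested rose, and the median joint log2 change was 0.55. Itga11, a collagen-binding alpha chain known from fibroblasts, stood at 0.875 and 0.787 CPM in the WT sham libraries and at 0.278, 1.33 and 0.0695 CPM in the KO sham libraries. The WT TAC libraries held 1.19, 1.69 and 5.04 CPM and the KO TAC libraries 3.86, 3.29 and 5.83 CPM. The rise was 2.33 ± 0.60 in the joint fit (SE, edgeR adjusted p = 0.0166) and held in all 22 other settings, although WT TAC 1 lay below KO sham 2. In KO alone the change was 2.88 ± 0.81 and did not pass (edgeR adjusted p = 0.0617), whereas it passed without KO sham 2 (4.66) or without WT TAC 3 (2.88), with edgeR adjusted p from 0.0254 to 0.0324, and without WT TAC 3 and KO TAC 1 together (2.92, edgeR adjusted p = 0.0214). The largest value is 102 counts, so its level stayed at 1.14 RPKM or less. Itga1, the collagen receptor alpha chain with the highest level, differed by 0.38 ± 0.29 and did not pass. Itga10, at 16 counts or fewer and with 33.5% of its exon bases shared with a second gene model, differed by 1.52 ± 0.68 and did not pass either.

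Both collagen-activated kinases were detected in every library and neither passed. Ddr1 ran from 13.4 to 15.7 CPM after sham and from 14.1 to 31.7 CPM after TAC (joint log2 change 0.55 ± 0.22, edgeR adjusted p = 0.096), and passed without WT TAC 1 (0.64, edgeR adjusted p = 0.0434). Ddr2, the family member of fibroblasts, ran from 13.1 to 23.0 CPM after sham and from 10.2 to 24.9 CPM after TAC (-0.24 ± 0.24, edgeR adjusted p = 0.524, or 0.18 with library totals). In WT both sham libraries of Ddr2 (21.8 and 23.0 CPM) lay above the 3 TAC libraries (14.1, 10.2 and 17.7 CPM), a change of -0.68 ± 0.33 that did not pass (edgeR adjusted p = 0.214) and passed without WT TAC 3 and KO TAC 1 (-0.89, edgeR adjusted p = 0.0319). Summed fibroblast markers, 708 to 1027 CPM after sham and 2046 to 5761 CPM after TAC, were higher with TAC in each library: 5 of 8 rose in the joint fit, 0 fell and none was at 0.

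Among the 6 syndecans and related molecules, 3 rose in the joint fit (Itgbl1, Cd44 and Sdc1), 0 fell, and the median log2 change was 1.06. Itgbl1 (chr14:123659971-123975618, plus strand) encodes a protein that resembles the stalk of integrin beta chains and is not itself part of a receptor pair. It stood at 5.56 and 8.97 CPM in the WT sham libraries and at 6.39, 6.52 and 7.71 CPM in the KO sham libraries. With TAC, WT gave 87.1, 64.0 and 62.8 CPM and KO 18.3, 47.8 and 58.2 CPM. The sham libraries were close together, all TAC libraries lay above them, and each KO TAC library lay below each WT TAC library. The rise was 3.30 ± 0.48 in WT (SE, edgeR adjusted p = 0.00367), 2.59 ± 0.39 in KO (edgeR adjusted p = 0.00408) and 2.90 ± 0.31 in the joint fit (edgeR adjusted p = 8.65e-05). Without WT sham 1 the WT change was 2.99 and did not pass (edgeR adjusted p = 0.0787). KO against WT after TAC was -0.78 ± 0.37 and did not pass (edgeR adjusted p = 0.747).

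Cd44 (chr2:102811141-102901665, minus strand), the hyaluronan receptor of many cell types, leukocytes and fibroblasts among them, stood at 4.81 and 6.77 CPM in the WT sham libraries and at 3.71, 4.28 and 4.86 CPM in the KO sham libraries. TAC libraries of WT read 16.98, 22.7 and 12.98 CPM, those of KO 15.3, 18.3 and 20.5 CPM. The 2 surgery groups were far apart in both genotypes. Cd44 rose by 1.60 ± 0.33 in WT (SE, edgeR adjusted p = 0.0168), 2.07 ± 0.29 in KO (edgeR adjusted p = 0.00275) and 1.86 ± 0.22 in the joint fit (edgeR adjusted p = 0.000135), and the joint call was lost in 0 of 22 settings. The WT call was lost in 5 of 23, among them those that left out WT sham 1 or 2 or WT TAC 2 (1.37 to 1.85, edgeR adjusted p from 0.0501 to 0.176).

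Sdc1 (chr12:8771323-8793715, plus strand), the syndecan known from epithelium and plasma cells, read 3.38 and 2.91 CPM (WT) and 1.20, 2.35 and 3.89 CPM (KO) after sham, and 7.51, 13.5 and 8.05 CPM (WT) and 4.96, 8.09 and 11.6 CPM (KO) after TAC. It was higher in all TAC than in all sham libraries and rose by 1.67 ± 0.33 in the joint fit (SE, edgeR adjusted p = 0.0036), with the call lost in 0 of 22 settings. Within WT and within KO it did not pass (1.62 ± 0.52 and 1.71 ± 0.45, edgeR adjusted p = 0.0759 and 0.0511). Without WT TAC 3 or without KO TAC 1 it did, at 1.62 to 1.73 in WT (edgeR adjusted p from 0.0412 to 0.0465) and 1.70 to 1.93 in KO (edgeR adjusted p from 0.0236 to 0.0381), as it did without both (1.73 and 1.93, edgeR adjusted p = 0.0149 and 0.00826). Sdc2 led the syndecans in every library with 49.2% to 68.2% of their summed RPKM and differed by 0.30 ± 0.17 on the log2 scale, while the share of Sdc1 was 1.60% to 4.89% after sham and 4.51% to 12.4% after TAC. Sdc4, the syndecan of focal adhesions, differed by 0.46 ± 0.27 and Sdc3 by 0.43 ± 0.33. None of these 3 passed, and Sdc3 ran from -0.15 without WT TAC 3 and KO TAC 1 to 0.97 with the ribosomal protein share as covariate, where it passed (edgeR adjusted p = 0.00242). Cd44, Itgbl1 and Sdc1 moved alongside the fibroblast and macrophage marker sums given here, whose part in the rises was not tested.

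**Figure D4:**
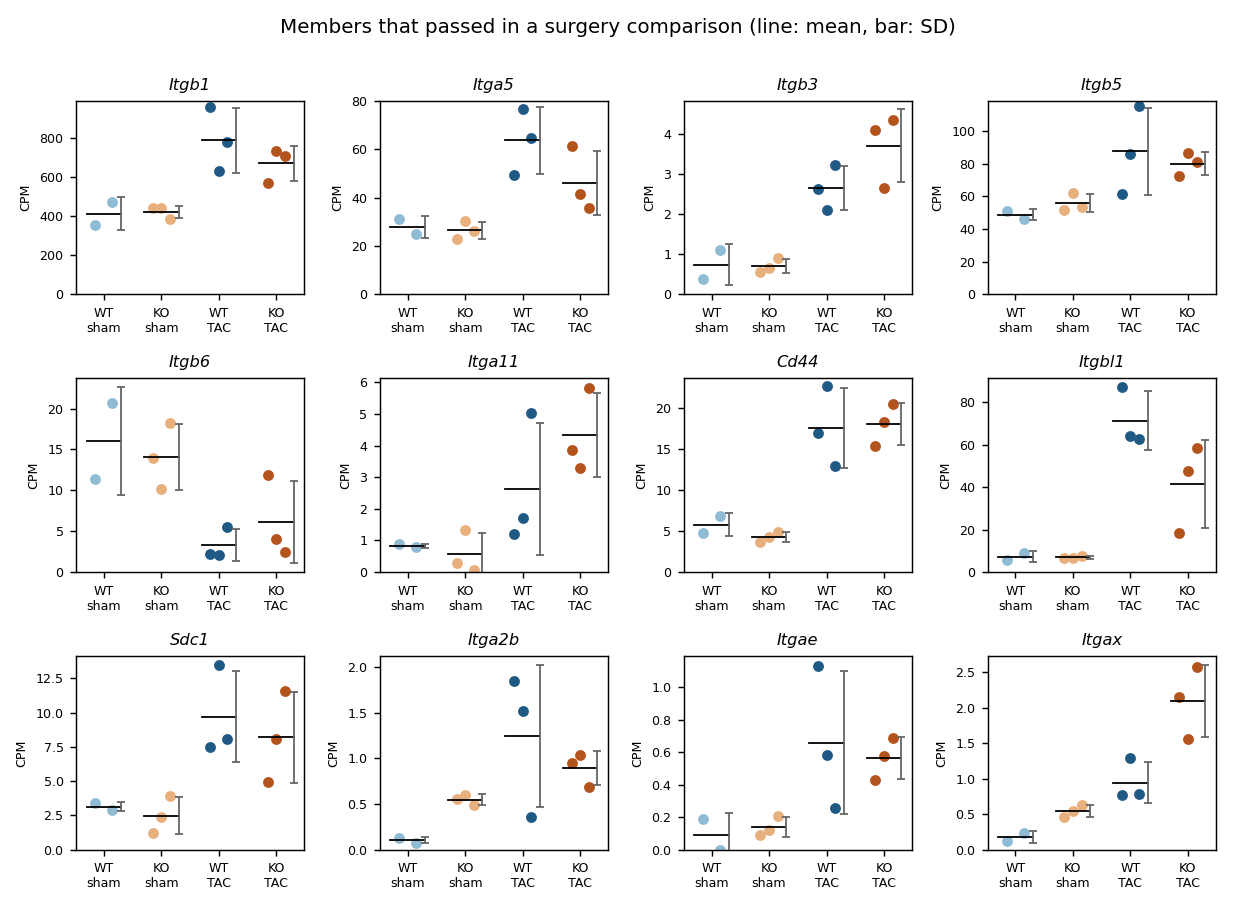
CPM in each library of the 12 receptor genes that passed in a comparison of TAC and sham, by group, with the mean as a line and the SD as a bar. Itgb6 is the only one of the 12 that is lower after TAC, and Itgb1, Itga5, Itgb3, Cd44, Itgbl1, Sdc1, Itgae and Itgax have all TAC libraries above all sham libraries. The 12 are shown because they passed, and how many of all genes separate likewise was not counted.

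The integrins of leukocytes and platelets were scarce, with at most 279 counts in a library, so they rest on fewer reads than the matrix receptors. Of 9 tested genes, 2 rose in the joint fit (Itgax and Itgae), 0 fell, and the median log2 change was 0.97. Itgax, Itgae and Itga2b passed the filter on low counts only through TAC libraries, because their sham counts, given below, were too low for it. The number of risen genes and this median thus include genes that entered the tests where they were high. Itgb2, the beta chain shared by Itgal, Itgam, Itgax and Itgad, stood at 3.06 and 5.75 CPM in the WT sham libraries and at 5.65, 3.62 and 3.54 CPM in the KO sham libraries. The values with TAC were 5.24, 12.9 and 3.48 CPM for WT and 10.8, 8.03 and 10.2 CPM for KO. Its surgery groups overlapped in WT and not in KO, and the joint change of 0.97 ± 0.34 did not pass (SE, edgeR adjusted p = 0.0586). It passed without WT TAC 3 and KO TAC 1 (1.05, edgeR adjusted p = 0.0164), and without WT TAC 1 or WT TAC 3 alone (1.07 and 1.13, edgeR adjusted p from 0.0196 to 0.0499).

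Itgax, an alpha chain of dendritic cells and macrophages, had 2 and 3 counts in WT sham, 5, 9 and 9 in KO sham, 13, 22 and 15 in WT TAC and 45, 27 and 45 in KO TAC. As CPM these are 0.125 and 0.236, then 0.463, 0.543 and 0.625, then 0.774, 1.29 and 0.779, then 2.14, 1.56 and 2.57. The 4 groups thus formed 4 separate ranges, with KO above WT within each surgery and TAC above sham within each genotype. The joint change with surgery was 2.08 ± 0.42 (SE, edgeR adjusted p = 0.00409) and was lost in 0 of 22 settings. In WT alone it was 2.37 ± 0.71 and did not pass (edgeR adjusted p = 0.0647), or 2.48 without WT TAC 3 (edgeR adjusted p = 0.0494) and 2.48 without both WT TAC 3 and KO TAC 1 (edgeR adjusted p = 0.0469). The genotype differences, 1.58 ± 0.72 after sham and 1.14 ± 0.52 after TAC, did not pass (edgeR adjusted p = 1 and 0.747).

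Itgae, which pairs with Itgb7 to bind E-cadherin on dendritic cells and lymphocytes, had 3 and 0 counts in WT sham and 1, 2 and 3 in KO sham, and 19, 10 and 5 in WT TAC and 9, 10 and 12 in KO TAC. Its joint rise of 2.21 ± 0.70 (SE, edgeR adjusted p = 0.041) rests on few counts. The call was lost in 13 of 20 other settings, among them that with no filter on low counts (2.22, edgeR adjusted p = 0.0856). In 9 of these 1 library was left out (any but WT TAC 3 and KO TAC 1), with changes of 1.87 to 2.51 and edgeR adjusted p from 0.0559 to 0.11. The counts of WT TAC over WT sham, 34 against 3, give a ratio of 6.12 (95% exact interval of counting 1.92 to 31.1).

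Itga2b, the alpha chain of megakaryocytes and platelets, rose in WT. It had 2 and 1 counts in WT sham, 6, 10 and 7 in KO sham, 31, 26 and 7 in WT TAC and 20, 18 and 12 in KO TAC. The change in WT was 3.49 ± 0.94 (SE, edgeR adjusted p = 0.045), and the 64 against 3 counts give a ratio of 11.5 (95% exact interval of counting 3.77 to 57.3). It was lost in 13 of 22 other settings, 8 of which left out a single library (WT sham 1 or 2, KO sham 1, 2 or 3, WT TAC 1 or 2, or KO TAC 2, with changes of 3.09 to 3.85 and edgeR adjusted p from 0.0634 to 0.274). The joint change of 1.66 ± 0.65 did not pass (edgeR adjusted p = 0.0918), but passed without WT TAC 3 and KO TAC 1 (1.90, edgeR adjusted p = 0.0489), with DESeq2 (1.71, adjusted p = 0.033) and with library totals (2.05, edgeR adjusted p = 0.0293). In KO the change was 0.70 ± 0.67, and the difference between the genotypes, -2.79 ± 1.15, did not pass (edgeR adjusted p = 0.992). The 7 platelet markers summed to 42.8, 45.7 and 7.43 CPM in WT TAC and to between 8.15 and 16.8 CPM in the other libraries, of which Pf4, which macrophages also express, was the largest part in each. Gp6 had counts only in WT TAC 1, and the part of platelets in the change of Itga2b was not tested.

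Itgam, the alpha chain of macrophages and neutrophils, ran from 0.927 to 7.40 CPM after sham and from 3.48 to 13.3 CPM after TAC, and its joint change of 1.07 ± 0.47 did not pass (edgeR adjusted p = 0.133). Without WT sham 2 it was 1.57 and passed (edgeR adjusted p = 0.0418). Of its annotated exon bases 68.7% are shared with a second gene model on the same strand, so its level is uncertain. Itga4, which binds Vcam1, differed by 0.83 ± 0.38, and Itgal, Itgad and Itgb7 by 0.05, 0.12 and -0.02, with none passing. The 9 macrophage markers summed to 131 to 164 CPM after sham and to 252 to 642 CPM after TAC, 8 of 9 rose in the joint fit, 0 fell, and none was at 0. The 10 lymphocyte markers summed to 2.11 to 4.73 CPM after sham and to 0.894 to 8.98 CPM after TAC, with 0 of 3 tested passing. The 9 markers of neutrophils and mast cells summed to 5.73 to 27.9 CPM after sham and to 5.50 to 40.6 CPM after TAC, with 0 of 8 tested passing. The part of these cells in the rises of Itgax and Itgae was not tested.

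**Figure D5:**
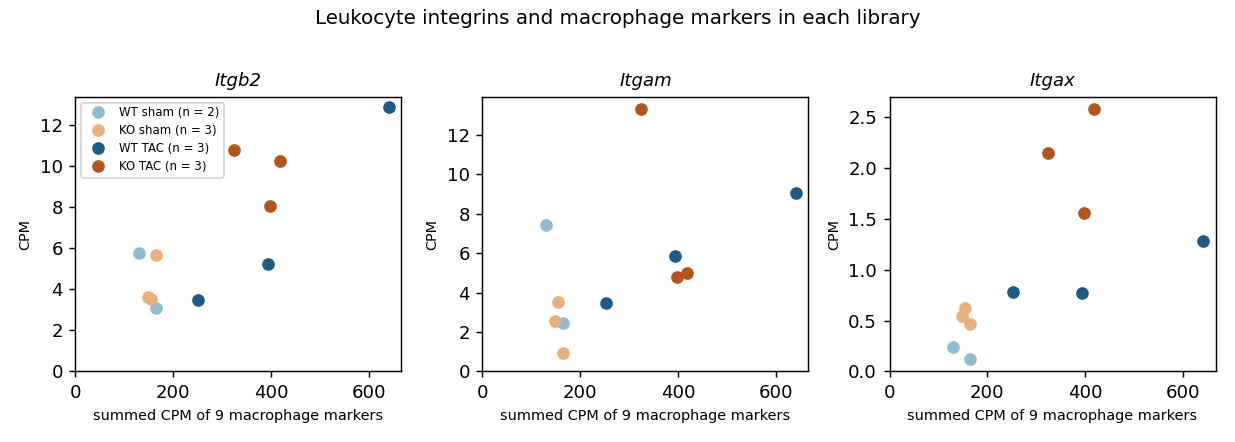
CPM of Itgb2, Itgam and Itgax against the summed CPM of 9 macrophage markers, 1 point per library, coloured by group. The 5 sham libraries lie at marker sums of 131 to 164 and the 6 TAC libraries at 252 to 642, and Itgax is lower in WT TAC 1 (sum 395) than in the 3 KO TAC libraries (sums 325 to 418).

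Itgb3bp, the centromere protein, was the one gene outside these roles. It ran from 7.95 to 19.5 CPM after sham and from 5.72 to 54.0 CPM after TAC, and its joint change of 0.68 ± 0.51 did not pass (edgeR adjusted p = 0.379). Without WT TAC 3 and KO TAC 1 it passed (1.12, edgeR adjusted p = 0.0364), and with the ribosomal protein share as covariate it turned to -0.64. In WT it passed without WT TAC 3 (2.04, edgeR adjusted p = 0.0333) and without both libraries (2.04, edgeR adjusted p = 0.0047).

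No receptor gene passed in a comparison of the genotypes. Of the 35 tested, 0 passed for KO against WT after sham, 0 after TAC and 0 for the difference of the load response (edgeR), where 0% of all 14619 genes passed in each of the 3. At an unadjusted p under 0.05 there were 2 genes after sham (Itga2b, 2.32 ± 0.95, and Itgax), 4 after TAC (Itgav, -0.99 ± 0.41, Itga6, 0.93 ± 0.41, Itgax, and Sdc4, -0.76 ± 0.35) and 1 for the difference of the load response (Itga2b). The difference of Itga6 went with KO TAC 1, at 99.3 CPM where the other 5 TAC libraries held 18.7 to 50.6 CPM, and was 0.36 without it. That of Itgav went with WT TAC 1, the WT library whose title ends in F, at 71.5 CPM where the other 5 TAC libraries held 16.8 to 27.4 CPM. It was -0.28 without that library and -0.16 among M titles. DESeq2 and limma-voom also called 0 of the 35 in each. Over all genes, edgeR gave 185, 930 and 434 at an unadjusted p under 0.05, limma-voom called 0 in each, and DESeq2 called 3, 6 and 2. With no filter on low counts edgeR called 12 higher and 8 lower after sham, 50 and 156 after TAC, and 19 and 61 for the difference of the load response. Without WT TAC 3 it called 0 in each, with 3029 after TAC and 1633 for the difference of the load response at an unadjusted p under 0.05. The median log2 difference of the 35 was -0.02 after sham, 0.14 after TAC and -0.04 for the difference of the load response, beside 0.02, 0.01 and 0.01 over all genes. A p that misses the threshold does not show that the genotypes are alike. On simulated counts with genes changed in the KO TAC libraries alone, edgeR recovered 3% of 2-fold and 61% of 4-fold changes for KO against WT after TAC. For the difference of the load response it recovered 0% of either, where DESeq2 recovered 2% and 41%. DESeq2 also called more unchanged genes, 37 against 7 with edgeR for KO against WT after TAC. For the difference of the load response these were 25 against 0.

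Genes on both sides of the receptors were read from lists of ligands and partners. Beside the counts below, 10.6% of all tested genes rose and 8.96% fell in the joint fit. In WT 3.88% rose and 3.04% fell, and in KO 3.32% and 1.37%. Among matrix ligands of the fibronectin and collagen receptors, 17 of 21 rose and 0 fell in the joint fit, with a median log2 change of 1.89. Fn1, fibronectin, rose by 4.00 ± 0.23 (SE, edgeR adjusted p = 2.79e-06), Postn, periostin, by 6.17 ± 0.42, the collagen chain Col1a2 by 3.51 ± 0.26 and the microfibril gene Fbn1 by 3.27 ± 0.27. In WT 14 of 21 rose and in KO 12 of 21, with 0 falling in either and medians of 2.07 and 1.94. Col1a1 and Col3a1 belong to this list and to the fibroblast markers whose sum is given above, and the part of fibroblasts in these rises was not tested.

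Adaptors and kinases of focal adhesions counted 3 of 33 higher in WT (median 0.65). In KO 1 of 33 was higher (median 0.40), near the share of all genes. In the joint fit 12 of 33 tested rose with 0 falling and a median log2 change of 0.60. The leading ones were the actin cross-linker Actn1 (1.82 ± 0.21, edgeR adjusted p = 0.000142), the adaptor Zyx, zyxin (1.32 ± 0.25), the leukocyte and platelet kindlin Fermt3 (1.56 ± 0.32) and the adaptor Tgfb1i1 (1.29 ± 0.28). Partners of dystroglycan counted 2 of 19 higher in the joint fit, near the share of all genes, and 4 lower, with a median of -0.16. Among them the sarcoglycan Sgca (-0.78 ± 0.21) and sarcospan, Sspn (-0.54 ± 0.18), fell, while the sarcoglycan Sgce (0.69 ± 0.16) and the syntrophin Sntb2 (0.82 ± 0.27) rose. In WT alone 1 of 19 fell, and in KO alone 0 of 19 passed (4 at an unadjusted p under 0.05), with medians of -0.18 and -0.08. Over all 14619 genes, 2821 were at an unadjusted p under 0.05 in KO (edgeR).

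Laminins and their basement membrane partners counted 2 of 13 tested higher in the joint fit (the nidogens Nid1, 1.15 ± 0.27, and Nid2, 1.40 ± 0.44). A further 2 were lower (the laminin chains Lamb3, -0.99 ± 0.24, and Lama5, -0.88 ± 0.24), and the median was 0.53. Both counts are near the shares of all genes. At an unadjusted p under 0.05 (edgeR) were 4848 of all 14619 genes in the joint fit, 3775 in WT and 2821 in KO. The unadjusted counts in this paragraph are to be read beside these. In WT and in KO alone 0 of 13 passed (5 and 4 at an unadjusted p under 0.05, edgeR, and up to 6 higher and 2 lower in other settings), with medians of 0.61 and 0.52. Of the partners of syndecans and Cd44, 4 of 16 rose and 0 fell, with a median of 0.18. These were Msn, moesin, which links Cd44 to actin (1.20 ± 0.19), the syndecan-binding Sdcbp (0.71 ± 0.18) and Cask (0.65 ± 0.20), and the hyaluronan synthase Has2 (2.44 ± 0.74), the maker of the ligand of Cd44. Msn was also the 1 of 16 that rose in WT (1.28) and in KO (1.13) alone, where the medians were 0.21 and 0.18. Of the cell-surface ligands of leukocyte integrins 0 of 6 tested passed in the joint fit (2 at an unadjusted p under 0.05, edgeR, and up to 3 in other settings), with a median of 0.08. In WT and KO alone 0 of 6 passed (1 at an unadjusted p under 0.05 in each, and up to 1 in other settings), with medians of 0.18 and 0.03. Between the genotypes and for the difference of the load response 0 genes of these lists passed with edgeR, DESeq2 or limma-voom, while edgeR with no filter on low counts called 2 matrix ligands lower in KO after TAC and 1 lower for the difference of the load response.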

How the data were processed

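Whole-gene counts of 11 libraries of mouse ventricular myocardium were used as the authors deposited them; per the submitters' processing notes, reads were aligned with STAR 2.5.1 to GRCm38, counted with featureCounts and tested with DESeq2. The strand setting and annotation version are not given in the sources used here. Columns were matched to samples by source name, groups come from the genotype and treatment labels, and 0 columns were left unused. The 14619 genes that passed filterByExpr were tested with edgeR 4.0.16 in R 4.3.3 (TMM factors, quasi-likelihood test, 2-sided, Benjamini-Hochberg adjusted p under 0.05) on the 4 group means of all 11 libraries (7 residual degrees of freedom). The joint comparison of TAC and sham used an additive fit with genotype (8 residual degrees of freedom). Standard errors are the log2 change divided by the square root of its F value, and are approximate.

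CPM are TMM-scaled and compare libraries within a gene. RPKM divide them by the union exon length from GENCODE M21 on GRCm38 and compare genes. A floor of 3 counts is 0.143 to 0.278 CPM. Ratios from 3 counts or fewer carry exact intervals that cover counting error only. On simulated counts for the 14619 genes, 2% of genes changed 2-fold and 35% of those changed 4-fold were called by edgeR in the WT comparison, 3% and 56% in KO, and 17% and 89% in the joint fit. Unchanged genes called in these 3 comparisons numbered 2, 2 and 7 with edgeR and 29, 38 and 31 with DESeq2. Changed genes were drawn only from those above a minimum mean count, so the rates do not describe genes of few counts. Recovery for the genotype comparisons is given beside them.

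The members, role groups and lists of related and marker genes were chosen with earlier results of these data known. Every gene of the symbol rule is accounted for, with values in each library for those that passed in any comparison and for Itgb1, Itga7, Dag1 and Itgb2; of each list of related genes, up to 4 that passed with the smallest p are named, and Sspn and Sntb2 were added after their values were seen. Not every gene named by this rule is reported here. The alternatives were 23 other settings: other scalings, filters and tools (DESeq2 1.42.0, limma-voom with limma 3.58.1), covariates, subsets, and leaving out each library.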

Additional observations from a re-analysis of the deposited data

How the results depend on the processing

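No call reversed. Of 4656 changes of receptor genes in other settings 4138 passed neither there nor as reported, and 265 of these changed sign. In the joint fit the calls of Cd44, Itga5, Itga11, Itgax, Itgb3, Itgbl1 and Sdc1 held in all 22 settings. Receptor genes higher with TAC in WT (4 as reported) numbered 9 with library totals, 10 with DESeq2, 7 with no filter, 2 with the title letter as covariate, 7 with the ribosomal protein share as covariate, 1 among M titles, 1 in a fit of the groups compared alone and 9 without WT TAC 3 and KO TAC 1. Leaving out 1 library gave 0 (WT sham 1) to 8 (WT TAC 3). Lower in WT (1 as reported) numbered 0 with library totals, limma-voom, the title letter, the ribosomal protein share or M titles, 3 without WT TAC 3 and KO TAC 1, and 0 to 1 leaving out 1 library. Higher in KO (3 as reported) numbered 10 with library totals, 6 with DESeq2, 6 with no filter, 5 with a mean of at least 1 CPM, 10 with the ribosomal protein share, 0 among M titles, 5 without WT TAC 3 and KO TAC 1, and 2 (KO sham 1, KO sham 3 or KO TAC 3) to 5 (WT TAC 3) leaving out 1 library. Lower in KO (0 as reported) numbered 1 with no filter, 1 without WT TAC 3 and KO TAC 1, and 0 to 1 (KO TAC 1) leaving out 1 library. In the joint fit 19 were higher with library totals (10 as reported), where 3577 of all genes were higher against 1545 as reported. In other settings of the joint fit the calls of Itgae, Itgb5 and Itgb1 were lost, in 13 of 20, 6 of 22 and 2 of 22. Lower (1 as reported) numbered 0 among M titles, 2 without WT TAC 3 and KO TAC 1, and 0 (WT sham 2) to 1 leaving out 1 library. Over all genes, 1044 were higher in WT with library totals, 1336 with DESeq2 and 1433 with no filter (567 as reported). The title letter gave 359, the ribosomal protein share 623, M titles 163, the groups compared alone 327 and leaving out WT TAC 3 and KO TAC 1 2297. Lower in WT (444 as reported) were 133 with library totals, 411 with limma-voom, 249 with the title letter and 699 with the ribosomal protein share. M titles gave 41 and leaving out the pair 2077. The cause of these shifts was not tested.

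Over all genes, calls ranged from 20 to 2297 higher and 10 to 2077 lower in WT, from 87 to 1325 and 15 to 1215 in KO, and from 967 to 3577 and 385 to 2748 in the joint fit. Between the genotypes they ranged from 0 to 12 higher and 0 to 8 lower after sham, from 0 to 50 and 0 to 156 after TAC, and from 0 to 19 and 0 to 61 for the difference of the load response, each highest with no filter. With TAC in KO, higher calls over all genes (486 as reported) were 1325 with library totals, 939 with DESeq2 and 928 with no filter. They were 519 with a mean of at least 1 CPM, 1081 with the ribosomal protein share and 87 among M titles. Without WT TAC 3 and KO TAC 1 they were 1081. Lower in KO (201 as reported) were 403 with no filter and 1036 without this pair. Lower in the joint fit (1310 as reported) were 559 among M titles and 2748 without this pair. A fit of the groups compared alone was not run for the joint fit or the difference of the load response. Where leaving out 1 library left a group with 1 sample, the lone sample is assumed to vary like the other groups. With 2 WT sham libraries, edgeR recovered 17% or less of simulated 2-fold changes and DESeq2 37% or less, so small changes were mostly not detectable. No paired analysis was possible because the groups share no replicate numbers in the labels.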
